A study of Mus musculus with 2 samples.

Results

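The nuclei described here are 653 nuclei from mouse cortex samples that carried transcripts of at least 3 of the genes Hs3st4, Foxp2, Syt6 and Arhgap25, a set that marks layer 6 corticothalamic-like neurons. Of them, 41 carried at least 5 of 10 striatal markers. A further 30 had at least 8 counted transcripts of Tshz2, with lower Foxp2 and Syt6 than the remaining members. That name is given to neither group. They were drawn from 17501 barcodes of a single-nucleus RNA-seq experiment (10x Genomics Chromium), of which they made up 3.73% (95% Clopper-Pearson interval 3.46 to 4.02%, counting error only). A barcode was kept when at most 5% of its unique molecular identifiers (UMIs) were mitochondrial, when Slc17a7 and Sv2b, genes of excitatory synaptic vesicles, together had at least 2 UMIs, and when Gad1 and Gad2, the enzymes that make GABA, together had at most 1. At least 3 of the 4 genes then had to be present with a UMI, and their number had to exceed the number of genes present from each of 6 other sets of 4 genes. Those sets were A (Cux2, Otof, Stard8, Etnk2, an upper-layer set), B (Rorb, Rspo1, Kcnh5, Adam33), C (Hs3st2, Il1rapl2, Scube1, Deptor), E (Prox1, Glis3, C1ql2, Dsp), F (Fibcd1, Shisa6, Gm2115, Pkp2) and G (Ndst4, Cpa6, Dpyd, Ano2). The members were thus chosen by the measured UMIs of these genes, so their levels below are a description with no test.

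The experiment addressed ageing of the brain's blood vessels. Nuclei came from frozen cortex of untreated wild-type C57BL/6 mice fed a normal diet, in a group aged 18 months and a group aged 2 months, each a single pool of 3 mice. The deposited matrix holds 2 libraries, marked 1 and 2 in the barcodes, and no label ties a mark to an age. The 2 libraries are therefore set side by side, no age is given to either, and no test was possible.

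Layer 6 is the deepest layer of the cortex, and its corticothalamic neurons are glutamatergic cells that send axons back to the thalamus, the structure that relays sensory signals to the cortex. They act on thalamic relay cells and on the reticular nucleus that inhibits those cells, and they also contact neurons of the cortical layers above. Deep-layer transcription factors and corepressors, among them Tbr1, Sox5, Fezf2, Foxp2 and Tle4, are known from the development and identity of these cells.

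Both libraries held members. Library 1 held 313 members of 8914 barcodes (3.51%, interval 3.14 to 3.91%), and library 2 held 340 of 8587 (3.96%, interval 3.56 to 4.39%). Among barcodes that passed the mitochondrial, Slc17a7 and Gad limits, members made up 6.45% in library 1 and 6.79% in library 2. The median member had 7320 UMIs and 2862 genes in library 1 and 7633 UMIs and 2673 genes in library 2, with a range of 1187 to 65969 UMIs over both. Median depth was 7638 and 7793 UMIs in set B, 9377 and 9893 in set C, and 9511 and 10585 in set A, so members were shallower than sets A and C. Mitochondrial UMIs were a median 0.664% and 0.581% of a member's total. A doublet score of 0.2 or more (Scrublet) was given to 15 members of library 1 (4.79%) and 16 of library 2 (4.71%), against 3.42% and 3.87% of all barcodes. The automatic threshold of that program marked 0 and 2 barcodes of the libraries and was not used. The libraries shared 19 barcode sequences, and none of these was a member in both.

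The 4 genes of the rule differ widely in level. Hs3st4, which adds the 3-O-sulfate group to heparan sulfate, stood at 3767 CPM in library 1 (counts per 1000000 UMIs, summed over members) and 4070 CPM in library 2, and had a UMI in 100% of members. It was not rare elsewhere: 85.9% and 89.6% of set B, 82.4% and 82.1% of set C and 33.7% and 40.2% of oligodendrocyte nuclei had a UMI of it. Foxp2, a forkhead transcription factor of deep-layer neurons, stood at 634 and 774 CPM and was seen in 98.1% and 98.8% of members. Syt6, a synaptotagmin, reached 193 and 198 CPM and was seen in 79.6% and 77.4%. Arhgap25 reached 117 and 121 CPM and was seen in 56.9% and 64.4%. The limit of 3 genes was thus most often met without Arhgap25 or Syt6: 205 members of library 1 and 202 of library 2 had 3 of the genes, and 108 and 138 had all 4. In the mm10 build, GENCODE places Hs3st4 on chromosome 7 from 123982869 to 124398989 on the plus strand and Foxp2 on chromosome 6 from 14901349 to 15441977 on the plus strand. Syt6 lies on chromosome 3 from 103575231 to 103645569 on the plus strand and Arhgap25 on chromosome 6 from 87458545 to 87533259 on the minus strand.

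Nuclei just outside the rule carried the same genes at lower levels. Where 2 genes of the set were present and exceeded all other sets (179 nuclei in library 1 and 212 in library 2), Hs3st4 stood at 1657 and 1659 CPM, Foxp2 at 327 and 436 CPM, and Tle4, which the rule did not use, at 198 and 250 CPM. Just inside, members with exactly 3 genes had Hs3st4 at 3409 and 3781 CPM, Foxp2 at 605 and 719 CPM and Tle4 at 358 and 462 CPM. A further 53 and 64 nuclei with 3 or 4 genes were left out because another set tied, and 18 and 30 because another set had more. Transcripts of other sets were common inside as well, since 273 of 313 members in library 1 and 306 of 340 in library 2 had a UMI of at least 1 gene of set C.

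The label was set beside 14 listed markers of layer 6 corticothalamic neurons outside the rule. That list was chosen with earlier results of these data known, so its counts are a description and no independent check. Of the 14 markers, 13 were in the matrix, and Bcl11b was not analysed here. A gene was called higher when its CPM, after adding 1 CPM, was at least 2-fold above the mean of sets A, B and C in both libraries, among the 12655 genes with at least 20 UMIs over those sets and the members in each library. Of the 13 markers, 8 were called higher and 0 lower: Tle4, Zfpm2, Garnl3, Grik3, Sulf1, Crym, Sla and Rprm. Over all genes tested, 195 were called higher, which is 1.54%, and 319 lower, which is 2.52%; in library 1 alone 2.6% were higher and 4.66% lower, and in library 2 alone 2.56% and 4.64%. Members had the highest level among all 7 sets for 10 markers in library 1 and 9 in library 2, and for 9 in both, where 14.2%, 13.2% and 5.54% of all genes tested did so. The list's median log2 ratio was 1.83 in library 1 and 1.49 in library 2, where the median of all genes tested was 0.01 in both.

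The largest of these markers were abundant. Zfpm2, a cofactor of GATA transcription factors, had 1274 CPM in library 1 (95% Poisson interval 1230 to 1319) and 1581 CPM in library 2 (1535 to 1628), against means of 179 and 234 CPM in sets A to C. Tle4, a Groucho-family corepressor, had 348 CPM (325 to 372) and 474 CPM (449 to 500) against 53.0 and 54.1 CPM. These Poisson intervals cover counting error only and did not reach the reference levels in either library. Garnl3, a protein with a Rap/Ran GTPase-activating domain, had 1039 and 1303 CPM against 292 and 276 CPM, and the kainate receptor subunit gene Grik3 had 564 and 677 CPM against 100 and 132 CPM. Set C alone had Grik3 at 238 and 296 CPM, and at 4000 UMIs 42.8% and 47.9% of its nuclei had a UMI of it, against 82.7% and 87.3% of members. Sulf1, which trims sulfate from extracellular heparan sulfate, had 138 and 136 CPM against 23.6 and 32.9 CPM. Sla, a Src-like adaptor, was rarer at 23.0 and 25.7 CPM against 0.840 and 3.42 CPM.

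Of the 5 other markers, Sox5, Tbr1, Fezf2, Pcsk5 and Ntsr1 did not reach the 2-fold limit in both libraries. The deep-layer factor Sox5 had 544 and 739 CPM in members, log2 ratios of 0.87 and 1.05, and Tbr1 had 53.1 and 37.4 CPM, log2 ratios of 0.97 and 0.65. Both were nonetheless highest in members among all 7 sets in each library. Fezf2, which directs subcerebral projection fate, differed between the libraries: it had 40.0 CPM in library 1 and a level of 10.2 CPM in library 2, and set C had 24.6 and 8.18 CPM. Ntsr1, the neurotensin receptor whose Cre line is widely used to reach corticothalamic cells, was barely seen, with 16 UMIs in library 1 and 21 in library 2. A Ntsr1 UMI was present in 4.47% and 6.18% of members, in 4.05% and 4.58% of set C, and in 0.392% and 1.14% of oligodendrocyte nuclei. After thinning each nucleus to 1500 UMIs, the shares were 1.28% and 0.588% in members and 0.408% and 0.385% in oligodendrocyte nuclei, with overlapping intervals, so the Ntsr1 share could not be told from background at this depth.

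**Figure D1:**
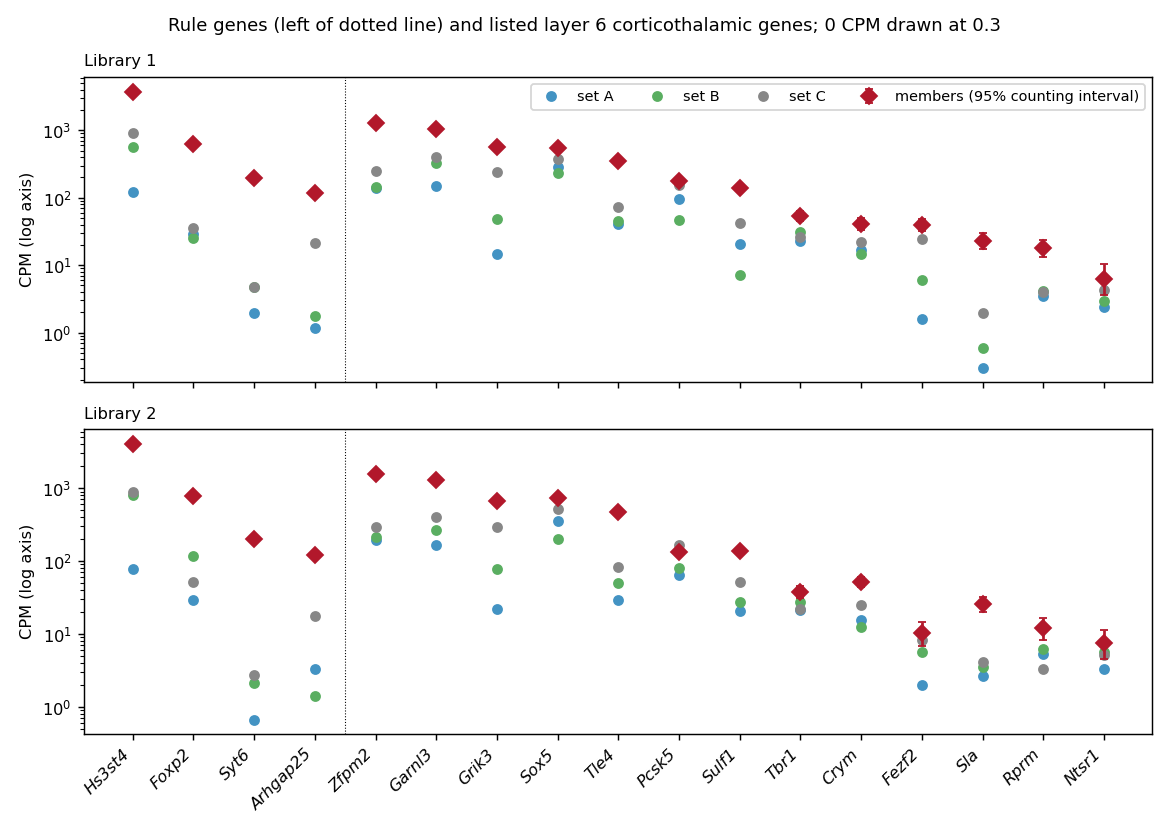
CPM (log axis) of the 4 rule genes and of 13 listed layer 6 corticothalamic genes in each library, for members (diamonds, bars are 95% Poisson intervals) and for sets A, B and C (circles). Zfpm2 stands at 1274 and 1581 CPM in members, above all 3 sets, while Ntsr1 at 6.34 and 7.40 CPM lies close to them.

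The number of listed markers per nucleus was also counted. Whether markers occurred together more often than their single shares give was not tested. At an equal depth of 4000 UMIs per nucleus, the median member had 5 of the 13 markers in library 1 and 6 in library 2, against 2 in sets A and B and 3 in set C in both libraries. At that depth 13 and 9 members were left out as too shallow. Tle4 was present in 74.0% and 80.4% of thinned members (85.9% and 89.4% without thinning) and in 21.2% and 18.6% of thinned set C nuclei (38.2% and 35.7% without). To gauge free RNA, nuclei of oligodendrocytes, the glia that make myelin, were set beside members at 1500 UMIs; their median depths were 2062 and 2705 UMIs. Tle4 was then present in 40.1% and 50.3% of members and in 14.7% and 9.62% of oligodendrocyte nuclei, and Foxp2 in 59.3% and 69.1% against 8.98% and 6.92%. Hs3st4 was present in 92.3% and 95.3% of members against 26.5% and 21.5%, and Zfpm2 in 69.9% and 80.3% against 24.9% and 31.2%. At the same depth Zfpm2 was in 18.9% and 24.1% of set A, 12.6% and 15.2% of set B, and 21.9% and 26.3% of set C. Hs3st4 was in 12.9% and 8.76% of set A, and in more nuclei of sets B and C than of oligodendrocytes. The source of these transcripts in oligodendrocyte nuclei was not tested.

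**Figure D2:**
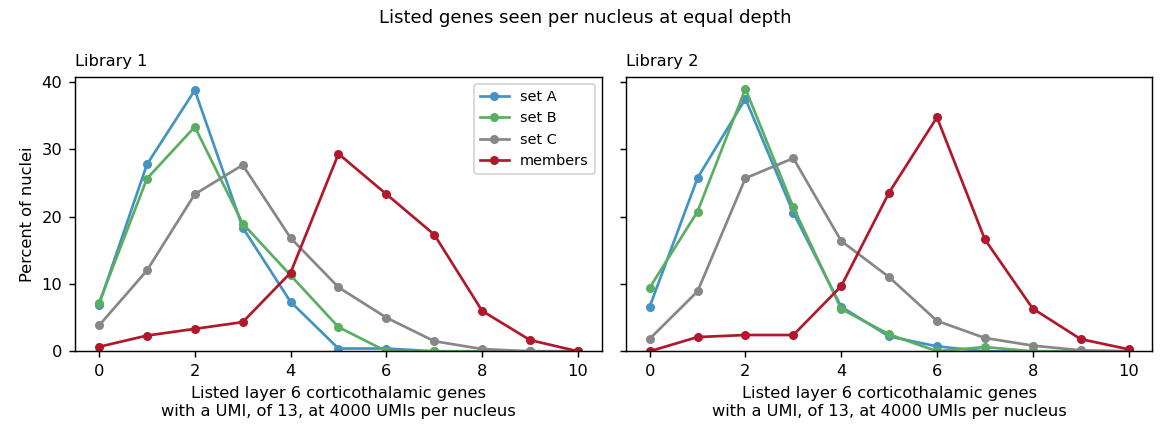
Percent of nuclei (y axis) by the number of listed layer 6 corticothalamic genes with a UMI at 4000 UMIs per nucleus (x axis, of 13), for members and sets A, B and C in each library. Members peak at 5 and 6 genes, to the right of sets A and B at 2 and of set C at 3.

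Markers of neighbouring cell types were also counted, where 1.54% of all genes tested were called higher and 2.52% lower. Of 6 tested layer 6b markers, 3 were called higher in members: Hcrtr2, Ctgf and Svil. The list medians were 1.19 and 1.14, and 4 and 3 of the 6 were highest in members among all 7 sets. Layer 6b is the thin cell layer next to the white matter. Its further markers Cplx3 and Nxph4, picked after their values were seen, were near zero in members at 1.59 and 3.88 CPM and at 0.793 and 1.41 CPM. The 8 listed layer 6b genes summed to 127 and 149 CPM in members. Sets A to C had 30.7 to 69.5 CPM and 26.2 to 83.6 CPM, and oligodendrocyte nuclei 169 and 306 CPM. Whether the members include layer 6b neurons was not tested. Of 8 upper-layer markers, 0 were higher and 3 lower (Cux1, Rasgrf2 and Plxnd1), with list medians of -1.73 and -1.19. Of 9 near-projecting and extratelencephalic markers, 0 were higher and 1, Qrfpr, lower, and of 5 intratelencephalic layer 6 and claustrum markers, 0 were higher and 2, Synpr and Ntng2, lower, with Car3 at 0 UMIs in members of both libraries. No marker of inhibitory neurons, oligodendrocytes, astrocytes, microglia, endothelial cells or oligodendrocyte precursors was called in either direction. The summed oligodendrocyte markers were 322 and 515 CPM in members, 312 to 376 CPM and 403 to 449 CPM in sets A to C, and 10078 and 15666 CPM in oligodendrocyte nuclei, which were chosen on some of these markers. Summed astrocyte markers were higher in members than in each of sets A to C, at 826 CPM against 392, 738 and 604 CPM in library 1 and at 1204 CPM against 546, 1088 and 753 CPM in library 2. Summed endothelial markers were 12.3 CPM in members of library 1 and 108 CPM in library 2, where sets A to C had 8.66 to 20.2 CPM and 39.8 to 73.3 CPM. The part of this free or neighbouring RNA in other results was not tested.

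A list of 10 markers of striatal projection neurons went against the label in some nuclei. Of these markers, 4 were called higher in members (Drd2, Adora2a, Rgs9 and Adcy5), where 1.54% of all genes tested were. Members had the highest level among all 7 sets for 8 of the 10 in each library and for 7 in both. Over all genes tested, 14.2%, 13.2% and 5.54% were highest in members in library 1, library 2 and both. The list's median log2 ratios were 1.30 and 0.92. The list summed to 2230 and 1918 CPM in members and to 1558 to 2254 CPM and 1552 to 1918 CPM in sets A to C, most of it from Pde10a, a phosphodiesterase, at 1872 and 1671 CPM in members. Most members had 1 to 3 of the 10 genes with a UMI, but 28 members of library 1 (8.95%) and 13 of library 2 (3.82%) had 5 or more. Sets A to C held 0 to 1.62% such nuclei, and set G held 3 of 50 (6.00%) in library 1 and 1 of 90 (1.11%) in library 2. The limit of 5 was set after the counts per nucleus had been seen, and it selected these nuclei on the 10 markers, so their levels of those genes are a description of the choice. These 41 nuclei had Drd2, the D2 dopamine receptor, at 208 CPM, Rgs9, a regulator of G protein signalling, at 863 CPM, and Adcy5, the main striatal adenylyl cyclase, at 733 CPM, over both libraries. Among genes that did not enter that limit, they had Hs3st4 at 1487 CPM, Zfpm2 at 422 CPM and Garnl3 at 256 CPM. Rarb, a retinoic acid receptor gene named after its value was seen, stood at 1342 CPM in them and 45.6 CPM in the remaining members. Their Slc17a7 level of 166 CPM was below the 290 CPM of the remaining members, and Gad1 and Gad2 reached 30.2 and 42.2 CPM against 14.3 and 13.4 CPM, under a rule that capped both.

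A smaller group was set apart by Tshz2, a teashirt zinc finger gene that marks near-projecting neurons among other cells. No Tshz2 UMI was found in 502 members, 119 had 1 to 7, and 32 had 8 or more, up to 56. Leaving aside those already counted for striatal markers, 13 nuclei of library 1 (4.15%) and 17 of library 2 (5.00%) had at least 8, a limit also set after the values had been seen. In these 30 nuclei Tshz2 stood at 2040 CPM, Vwc2l at 292 CPM and Nxph1 at 377 CPM, against 33.5, 28.7 and 48.8 CPM in the remaining 582 members. Foxp2 and Syt6 were lower in them, at 339 and 77.3 CPM, than in the remaining members, at 752 and 201 CPM, while Hs3st4 stood at 3260 against 4160 CPM. Nuclei with at least 8 Tshz2 UMIs made up 11% of set C in each library and 5.22% and 8.76% of set A.

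The remaining 582 members, 272 of library 1 and 310 of library 2, are described without those nuclei. They had Zfpm2 at 1542 CPM, Garnl3 at 1278 CPM, Tle4 at 432 CPM and Hcrtr2 at 50.3 CPM over both libraries, with the striatal markers Pde10a at 1580 CPM, Adcy5 at 72.8 CPM, Rgs9 at 43.2 CPM and Drd2 at 0.432 CPM from 2 UMIs. With the striatal-marker and Tshz2 nuclei left out of every set, 208 of 12300 genes were called higher (1.69%) and 353 lower (2.87%), and all 8 of the 13 corticothalamic markers were still called. Of the 195 genes called higher over all members, 171 were called higher again (87.7% of the first list and 82.2% of the second). For the lower genes 282 were shared (88.4% and 79.9%). The striatal list then had 1 of 8 tested genes called higher, Rgs9. In each library 3 of the 8 were highest in members, and the list medians were 0.32 and 0.40.

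**Figure D3:**
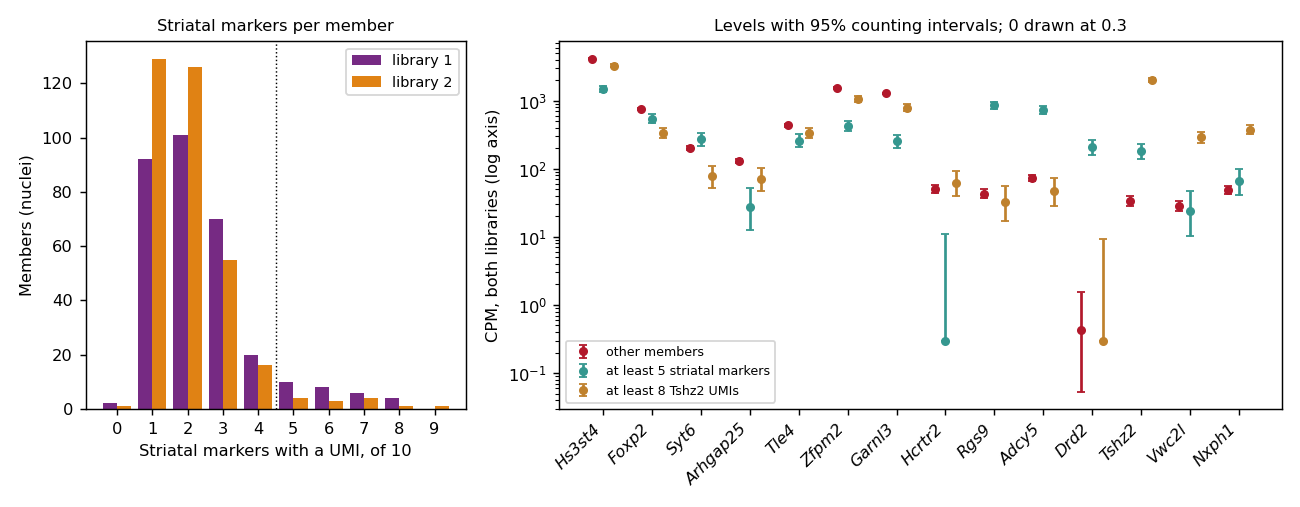
Left, the number of members (y axis) by the number of striatal markers with a UMI (x axis, of 10) in each library, with the limit of 5 dotted. Right, CPM over both libraries (log axis) with 95% Poisson intervals in the 41 nuclei with at least 5 striatal markers, the 30 with at least 8 Tshz2 UMIs and the 582 other members. Zfpm2, on which neither limit was set, stands at 422 CPM in the first, 1060 CPM in the second and 1542 CPM in the last; Drd2, Rgs9, Adcy5 and Tshz2 were used to choose the groups.

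Genes outside the rule were ranked by their log2 ratio to sets A to C, taken from the library in which that ratio was nearer to 0. Hcrtr2, the type 2 orexin receptor through which the arousal peptides of the hypothalamus act, ranked first among genes with at least 100 UMIs over sets A to D in each library, although Shb was above it in library 1 and Gm10635 in library 2: 45.6 CPM (37.6 to 54.7) and 50.4 CPM (42.5 to 59.4) in members against 3.96 and 3.93 CPM, log2 ratios of 3.23 and 3.38. Its UMIs came from 17.6% and 14.4% of members, against 4.21% and 5.42% of set C and 1.18% and 2.27% of oligodendrocyte nuclei. At 1500 UMIs the shares were 4.81% (2.72 to 7.81%) and 4.12% (2.27 to 6.81%) in members and 0.408% (0.0103 to 2.25%) and 1.15% (0.239 to 3.33%) in oligodendrocyte nuclei, so the intervals were apart in library 1 and overlapped in library 2. Hcrtr2 had 0 UMIs in the 41 striatal-marker nuclei, which allows up to 11.1 CPM by the Poisson interval.

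Shb ranked behind Hcrtr2, followed by Zfpm2, Tle4 and Thsd7b. Shb, an SH2-domain adaptor, had 40.0 and 45.8 CPM against 3.13 and 4.78 CPM, and Thsd7b, a thrombospondin-repeat membrane protein, had 591 and 692 CPM against 80.5 and 107 CPM. Sdk2, a sidekick adhesion molecule that guides synaptic layering in the retina, had 532 and 623 CPM against 95.8 and 111 CPM. Set C alone stood above these means, with Thsd7b at 147 and 215 CPM and Sdk2 at 176 and 199 CPM. Igsf21, a synaptic adhesion protein, had 258 and 374 CPM against 52.0 and 77.4 CPM, and Glra2, the alpha 2 glycine receptor subunit, had 42.4 and 62.7 CPM against 5.53 and 11.7 CPM. Col5a1, a chain of type V collagen, differed more between the libraries, at 118 and 55.7 CPM, with 15.8 and 9.50 CPM in the reference sets. The others of the 20 highest were Rnf152, Gm10635, Rai14, Ptk7, Gng12, Rell1 and Pitpnc1, besides Zfpm2, Tle4, Grik3, Sema5a, Cntnap4 and Nfia described elsewhere. Their log2 ratios nearer to 0 in the 2 libraries lay between 2.09 for Pitpnc1 and 3.23 for Hcrtr2.

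**Figure D4:**
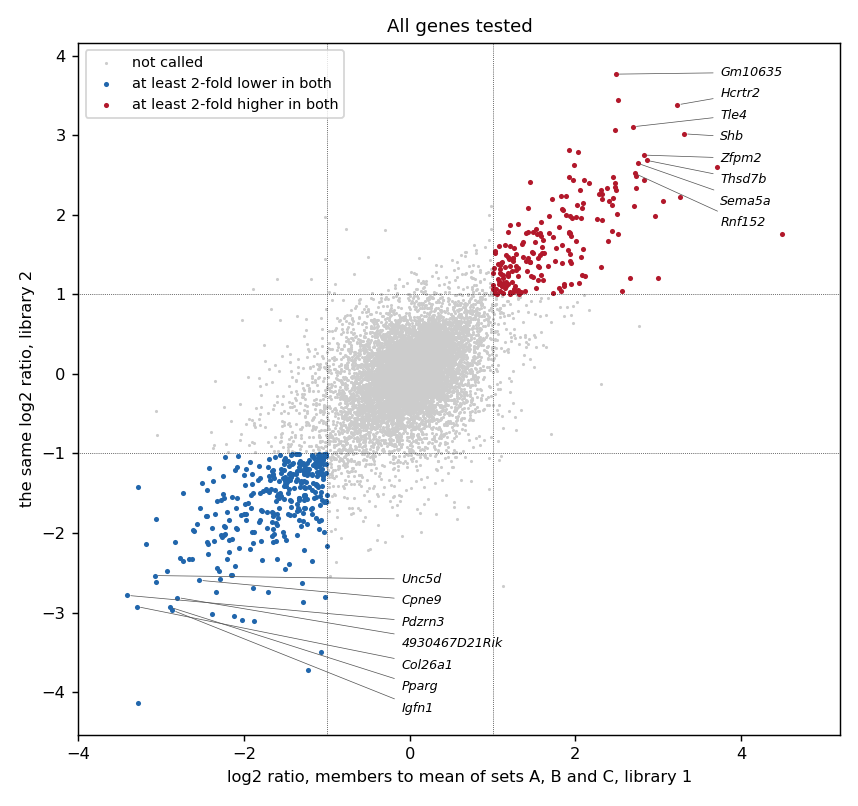
Log2 ratio of members to the mean of sets A, B and C in library 1 (x axis) and library 2 (y axis) for the 12655 genes tested; colours mark the 195 genes at least 2-fold higher and the 319 at least 2-fold lower in both libraries, and dotted lines mark 2-fold. Hcrtr2 lies at 3.23 and 3.38 and Pdzrn3 at -3.41 and -2.78.

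Most of the lowest ratios belonged to genes that were highest in set A or set B. Pdzrn3, a ubiquitin ligase with PDZ domains, had 69.4 and 104 CPM in members against 747 and 721 CPM, log2 ratios of -3.41 and -2.78. Unc5d, a netrin receptor family member expressed in upper-layer neurons, had 134 and 219 CPM against 1144 and 1275 CPM. Pparg, the nuclear receptor best known from fat cells, had 17.8 and 19.0 CPM against 139 and 152 CPM, and Boc, a Sonic hedgehog co-receptor, had 9.51 and 6.34 CPM against 53.9 and 58.4 CPM. Col26a1, Igfn1, 4930467D21Rik, Cpne9, Gpc6, Bnc2, Glis1 and Sntg2 made up the rest of the 12 lowest. Of these 12, Igfn1 and Gpc6 were highest in set A in both libraries and Glis1 in set G and set A; the others were highest in set B.

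Transcription factors of cortical layers were called in both directions. Of 41 tested, 4 were called higher (Tle4, Nfia, Nfib and Zfpm2), where 1.54% of all genes were, and 3 lower (Cux1, Tle1 and Lhx2), where 2.52% were, with list medians of 0.01 and 0.04. Nfia, a nuclear factor I gene, had 552 and 584 CPM against 103 and 129 CPM, and its relative Nfib had 830 and 782 CPM against 334 and 333 CPM; both were higher still in set E. Cux1, an upper-layer homeobox gene, had 99.5 and 94.4 CPM against 354 and 344 CPM.

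Neuromodulator and peptide receptors were called mostly on the higher side over all members. Of 42 tested, 8 were called higher (Hcrtr2, Htr1f, Htr4, Chrna4, Chrna5, Oprm1, Drd2 and Adora2a), where 1.54% of all genes were, and 2 lower (Htr2a and Crhr1), where 2.52% were. The list medians were 0.09 and 0.12. Htr1f, a Gi-coupled serotonin receptor, was the most abundant of the higher genes at 561 and 550 CPM against 196 and 173 CPM. Chrna5, the accessory nicotinic subunit known from layer 6, had 9.91 and 7.05 CPM against 0.305 and 0.779 CPM, from 25 and 20 UMIs, and its partner Chrna4 had 20.6 and 15.9 CPM against 6.17 and 4.88 CPM. Drd2 had 12.3 and 14.1 CPM and the adenosine receptor Adora2a 9.12 and 4.93 CPM, most of it from the striatal-marker nuclei. With those and the Tshz2 nuclei left out, 5 of 39 genes (Htr1f, Chrna4, Chrna5, Oprm1 and Hcrtr2) were called higher and 4 lower (Htr2a, Crhr1, Chrm2 and Adcyap1r1), and Htr4, Drd2 and Adora2a were not called or not tested. The lower genes over all members were Htr2a, the main excitatory serotonin receptor of cortex, at 27 and 24 CPM against 62.5 and 59.2 CPM, and Crhr1, a receptor of corticotropin-releasing hormone, at 10.7 and 10.2 CPM against 54.4 and 44.7 CPM.

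Among 24 glutamate receptor genes, 3 were called higher (Grik3, Grik4 and Grm8) and 2 lower (Grik1 and Grm2), where 1.54% and 2.52% of all genes were. The kainate receptor family was split: Grik4 had 390 and 366 CPM against 184 and 167 CPM, and Grik1 had 38.9 and 35.9 CPM against 94.9 and 105 CPM. Grm8, a presynaptic metabotropic receptor, had 1059 and 1202 CPM against 428 and 478 CPM, and Grm2, of the other presynaptic group, had 2.78 and 3.88 CPM from 7 and 11 UMIs. The NMDA receptor subunit genes Grin2a and Grin2b, the most abundant of the list, had log2 ratios of -0.16 and -0.12 and of -0.11 and 0.00. Of 14 GABA receptor genes none was called in either direction over all members, with Gabrg3 at log2 ratios of 0.84 and 0.95. With the striatal-marker and Tshz2 nuclei left out, Gabra2 was called lower.

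Over all members, the ion channel genes that were called lay mostly on the lower side. Of 43 potassium channel genes, 0 were called higher and 4 lower (Kcnb2, Kcnc2, Kcnip4 and Kcnq5), where 1.54% and 2.52% of all genes were. With the striatal-marker and Tshz2 nuclei left out, Kcnn2 was called higher and Kcnh8 was added to the lower genes. Kcnip4, a Kv4 channel-interacting protein and an abundant nuclear transcript, had 3704 and 5374 CPM against 10091 and 13546 CPM, and the delayed rectifier Kcnb2 had 272 and 407 CPM against 1166 and 1306 CPM. Of 29 sodium, calcium and HCN channel genes, Cacna1g, a T-type calcium channel, was lower at 14.3 and 14.8 CPM against 69.3 and 51.8 CPM, and the calcium channel subunit Cacna2d3 was lower at 550 and 501 CPM against 1633 and 1414 CPM. Scn4b, a sodium channel beta subunit, was called higher at 36.1 and 12.7 CPM against 17.1 and 5.50 CPM. The nearer of its log2 ratios was 1.04 over all members and 0.50 with the striatal-marker and Tshz2 nuclei left out, so that call was lost.

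Axon guidance genes were called in both directions. Of 49 tested, 8 were higher (Sema3e, Sema3f, Sema5a, Sema5b, Sema6d, Nrp1, Ephb1 and Ephb2) and 7 lower (Plxnd1, Epha6, Ntn4, Ntng1, Ntng2, Unc5c and Unc5d), where 1.54% and 2.52% of all genes were. The list medians were -0.26 and -0.19. Thus 5 of the higher genes were semaphorins, secreted or membrane proteins that steer axons. Sema5a had 145 and 220 CPM against 20.8 and 34.3 CPM, Sema5b had 89.6 and 159 CPM against 21.8 and 24.8 CPM, and Sema3e had 153 and 154 CPM against 47.1 and 44.4 CPM. Among all 7 sets, Sema5a was highest in set E in both libraries. Nrp1, a semaphorin co-receptor, had 383 and 348 CPM against 90.1 and 88.4 CPM. Plxnd1, the receptor of Sema3e, was low at 6.34 and 7.05 CPM against 36.5 and 26.3 CPM. The netrin-G genes Ntng1 and Ntng2 had 42.8 and 53.2 CPM against 185 and 208 CPM and 19.4 and 14.8 CPM against 101 and 84.5 CPM. All 8 higher genes were called again with the striatal-marker and Tshz2 nuclei left out.

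**Figure D5:**
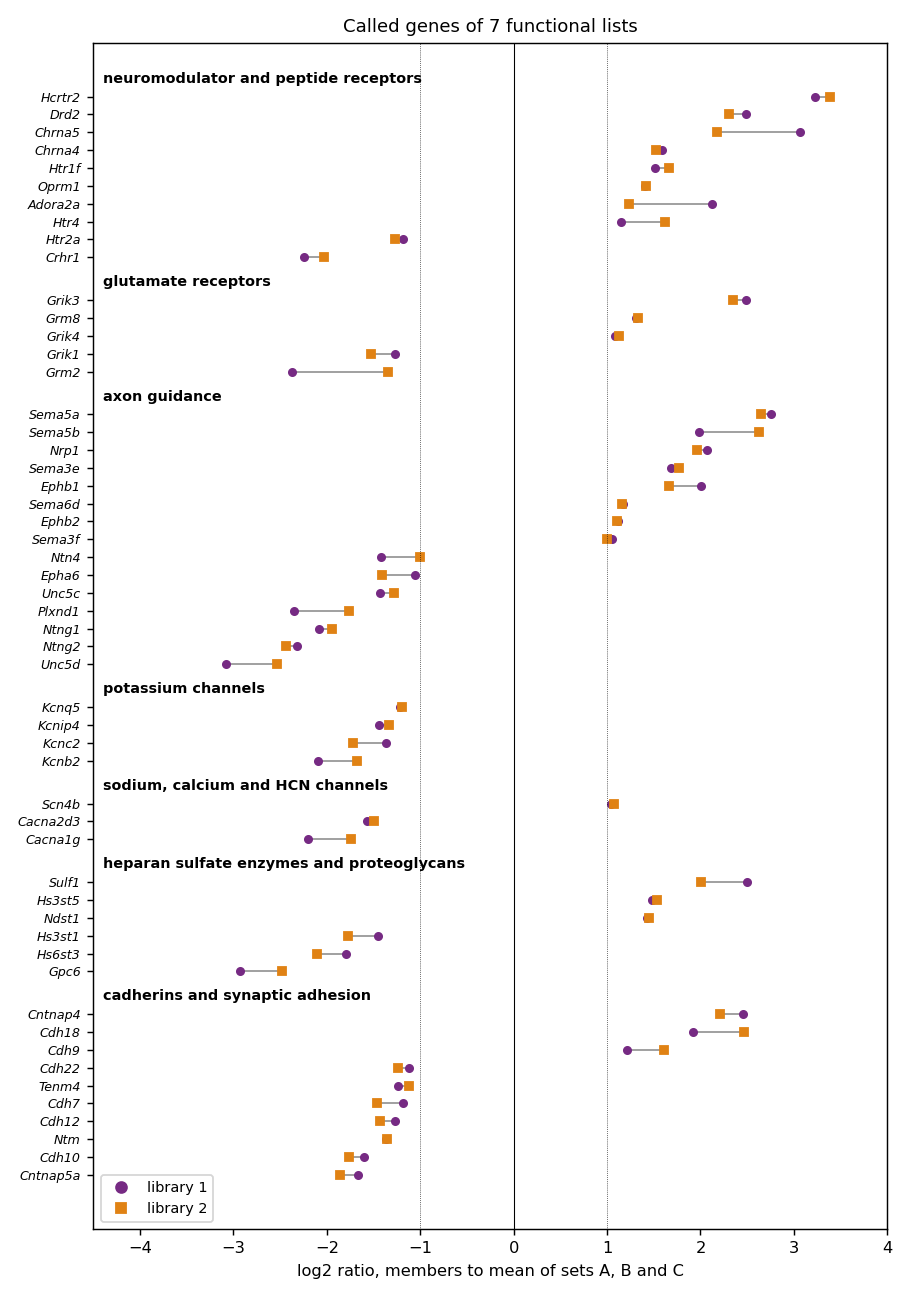
Log2 ratio of members to the mean of sets A, B and C (x axis) in library 1 (circles) and library 2 (squares) for the called genes of 7 functional lists (rows), all members included; dotted lines mark 2-fold. Of the neuromodulator receptors 8 lie on the higher side and 2 on the lower, and the 4 called potassium channel genes lie on the lower side.

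Adhesion genes were called in both directions. Of 52 cadherin and synaptic adhesion genes, 3 were called higher (Cdh9, Cdh18 and Cntnap4) and 7 lower (Cdh7, Cdh10, Cdh12, Cdh22, Cntnap5a, Tenm4 and Ntm), where 1.54% and 2.52% of all genes were. In both libraries 12 of the 52 were highest in members among all 7 sets, where 5.54% of all genes tested were. With the striatal-marker and Tshz2 nuclei left out, 4 were called higher and 12 lower, where 1.69% and 2.87% of all genes were. Cdh18, a type II cadherin, had 1967 and 2574 CPM in members against 518 and 464 CPM in the reference sets, and its relative Cdh10 went the other way, at 191 and 180 CPM against 584 and 613 CPM. Cntnap4 had 240 and 353 CPM against 43.0 and 75.7 CPM, whereas Cntnap5a had 218 and 210 CPM against 693 and 769 CPM.

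The heparan sulfate machinery, to which the rule gene Hs3st4 belongs, was also split. Of 25 tested genes, 3 were higher (Hs3st5, Ndst1 and Sulf1) and 3 lower (Hs3st1, Hs6st3 and Gpc6), where 1.54% and 2.52% of all genes were. Hs3st5, another 3-O-sulfotransferase, had 185 and 269 CPM against 65.7 and 92.4 CPM, and Hs3st1 of the same enzyme family had 5.55 and 4.58 CPM against 16.9 and 18.1 CPM. Hs6st3, a 6-O-sulfotransferase, had 544 and 564 CPM against 1889 and 2426 CPM. Gpc6, a glypican core protein that carries heparan sulfate, had 86.0 and 184 CPM against 663 and 1032 CPM.

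Release and signalling genes were also counted, where 1.54% of all genes tested were called higher and 2.52% lower. Of 36 synaptotagmin and release protein genes, 0 were higher and 3 lower (Syt17, Rims3 and Slc17a6) over all members. Syt10 was called higher once the striatal-marker and Tshz2 nuclei were left out. In cyclic nucleotide and G protein signalling, 4 of 38 genes were higher (Pde4d, Pde9a, Adcy5 and Rgs9) and 3 lower (Adcy8, Camk2d and Prkca). Pde4d, a cAMP phosphodiesterase, had 3420 and 3697 CPM against 1478 and 1445 CPM, and Pde9a, which degrades cGMP, had 51.9 and 58.5 CPM against 13.3 and 11.6 CPM. With the striatal-marker and Tshz2 nuclei left out, the nearer log2 ratio of Adcy5 went from 1.02 to 0.30 and its call was lost, while that of Rgs9 went from 1.98 to 1.41. Of 12 neuropeptide genes, Nxph3, a neurexophilin known from layer 6b, was higher at 7.14 and 9.51 CPM against 1.66 and 2.26 CPM, and Adcyap1 was lower at 0.793 and 2.11 CPM against 5.26 and 6.71 CPM. No immediate early gene of 16 and no connexin or barrier junction gene of 10 was called in either direction over all members. With the striatal-marker and Tshz2 nuclei left out, the immediate early gene Bdnf was called lower. Of 17 NAD metabolism genes, Nmnat3, which makes NAD, was higher at 14.3 and 12 CPM against 3.61 and 5.44 CPM.

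The study's genes of interest had few UMIs in members. Gja1, which encodes connexin 43, the gap junction protein of astrocytes and vessels, had 13.1 and 13.4 CPM in members and was seen in 9.27% and 8.82% of them, against 7.06% and 11% of oligodendrocyte nuclei. At 1500 UMIs the shares were 1.92% (0.709 to 4.14%) and 2.94% (1.42 to 5.34%) in members. In oligodendrocyte nuclei they were 3.67% (1.69 to 6.86%) and 5.00% (2.69 to 8.40%). Cdh5, the cadherin of vascular endothelium, had 2 and 5 UMIs and was seen in 0.639% and 0.588% of members. For Cdh5 the oligodendrocyte shares were 1.57% and 1.14%. At 1500 UMIs a Cdh5 UMI was present in 0% and 0.294% of members and in 0.816% and 0% of oligodendrocyte nuclei. At 4000 UMIs, Gja1 was present in 4.33% (2.33 to 7.30%) and 6.95% (4.46 to 10.2%) of members and in 21 of 600 and 21 of 708 nuclei of set C, beside the higher astrocyte sum in members given above, whose part in it was not tested. At 1500 UMIs the Gja1 intervals of members and oligodendrocyte nuclei overlapped in both libraries, so the shares could not be told apart. Gja1 is not read as expression by these neurons, and Cdh5 rested on too few UMIs to be told from background.

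Members varied among themselves most in a few abundant or patchy genes. At 4000 UMIs, 196 of 6765 genes had a variance more than 2 times their mean in both libraries, where the median gene stood at 1.06. Trpm3, a cation channel gene, had a UMI in 31.0% and 38.7% of members, with up to 58 and 53 UMIs in 1 nucleus, and a variance 19.0 and 12.7 times its mean. Tshz2 followed at 17.7 and 10.5 times. Cacna2d3 and Kirrel3, a synaptic adhesion gene, were patchy in the same way, at 10.1 and 10.5 times and at 9.28 and 7.51 times. Levels of Cacna2d3 were 3442 CPM in the striatal-marker nuclei and 311 CPM in the 582 other members, and those of Kcnab1, a potassium channel beta subunit, 2009 and 139 CPM. Rbfox1, Kcnip4, Lsamp and Phactr1 varied around high means instead, and Phactr1 stood at 12187 CPM in the striatal-marker nuclei against 4476 CPM in the others.

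Between the libraries, 208 of 6148 genes with at least 100 UMIs in members were at least 2-fold higher in library 1 and 132 in library 2. The median log2 ratio of library 1 to library 2 over these genes was 0.20, so the counts are not centred. Of the called genes, 102 and 108 differed at least 2-fold in the same direction in sets A to C pooled. Arc, an activity-regulated gene of synapses, had 48.0 CPM (39.8 to 57.3) and 9.16 CPM (5.99 to 13.4) in members, and sets A to C had 39.6 and 5.53 CPM. Egr3, an immediate early transcription factor, had 61.1 and 10.9 CPM, and 56.8 and 15.1 CPM in sets A to C. The noncoding genes Gm26565, Gm48239, Gm26906, Gm15577 and Csmd2os were higher in library 2 in members and in sets A to C. Ighm, listed as the immunoglobulin heavy chain mu gene, was an exception: it had 63.0 and 11.3 CPM in members, and 2.77 and 2.63 CPM in sets A to C. Each library is 1 pool of an age that cannot be told from the labels, so age, pool, dissection and library preparation cannot be told apart in these differences.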

How the data were processed

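Nuclei of frozen mouse cortex were profiled with the 10x Genomics Chromium platform, per the labels. The authors deposited 1 matrix of raw UMI counts, with no normalization, for 30905 genes and 17501 barcodes with 118655443 UMIs: 58108297 in library 1 and 60547146 in library 2. The file header names Cell Ranger 3.1.0, whereas the submitters' processing notes name Cell Ranger 2.0.1, Seurat 3.1, R 4.0.2 and mm10; the difference was not resolved. How reads in introns were counted is not given in the sources used here. Barcodes of empty droplets and free RNA can add UMIs of other cells to a nucleus.

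Members and gene lists were chosen with earlier results of these data known. Counts were summed per set and library and scaled to CPM of all UMIs, without length correction, so levels are compared within a gene. Log2 ratios used 1 CPM added, at least 20 UMIs over sets A to D per library, and a 2-fold limit in both libraries; genes of the rule were left out of the calls. With 1 pool per library, no p-value was computed. Poisson and Clopper-Pearson 95% intervals cover counting error only. Shares were compared after random thinning to 4000 or 1500 UMIs (seed 1). Oligodendrocyte nuclei had at least 3 of Mog, Mag, Mobp and Cldn11, at most 1 UMI of Slc17a7 and Sv2b, and at most 5% mitochondrial UMIs. Doublets were scored with Scrublet through scanpy 1.11.5 and kept. The genes named were the rule genes, all corticothalamic markers, the 20 highest and 12 lowest ratios among genes with at least 100 UMIs over the sets in each library, up to 4 highest and 3 lowest called genes and the 2 most abundant of each functional list, Gja1, Cdh5, the most abundant member of each marker list, and the most variable and most library-different genes. Other genes, such as Cplx3, Nxph4, Rarb, Vwc2l, Nxph1, Gabrg3, Kcnn2, Kcnh8, Chrm2, Adcyap1r1 and those listed by name as called, were chosen after their values were seen. Scripts (Python 3.11.15, numpy 2.4.6, scipy 1.17.1, pandas 2.3.3) were tested on simulated data. Coordinates were read from GENCODE vM21. Some genes and 1 gene list are not reported here.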

Additional observations from a re-analysis of the deposited data

How the results depend on the processing

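No paired analysis was possible because the results come from no test: each library is 1 pool, and the members were chosen by genes of the same nuclei. The share of members moved most with the rule itself: requiring all 4 genes gave 1.21% and 1.61% of barcodes in library 1 and 2, at least 2 genes gave 5.52% and 6.43%, at most 1% mitochondrial UMIs gave 2.47% and 3.24%, and no Gad1 or Gad2 UMI gave 2.57% and 3.04%. Leaving out striatal-marker and Tshz2 nuclei, an alternative added after seeing the data, gave 3.05% in library 1. The count of genes called higher was 86 with 10 CPM added and 87 against the highest of sets A, B and C. The count called lower was 125 with 10 CPM added, 170 with at least 2 genes of the rule and 707 against the highest set. In the other alternatives run, the counts stayed within 1.5 times those reported, but the genes called were not all the same. Against the mean of all 6 other sets, 148 of the 195 higher and 199 of the 319 lower genes were called again. With the rule applied after thinning to 4000 UMIs 143 and 219 were, and with all 4 genes required 140 and 264. The 8 corticothalamic markers called higher were 6 with 10 CPM added and against the highest set, and 7 to 9 in the others. No called value changed sign. Of 2483 values of 148 named genes under the alternatives, 596 moved by more than counting error, and of 544 list medians 90 moved. Depth limits statements on Ntsr1, Cdh5 and other genes with few UMIs.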

Other observations

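A search of promoters was made after the called genes were known. Of the genes called higher in members, those with a RefSeq promoter (GRCm38.p6, the 250 bases before the start, chromosome 18 left out) were searched on both strands for a forkhead motif (TGTTTAC), a T-box motif (GGTGTGA) and a SOX motif (AACAAT). Of 195 such genes 136 had a promoter entry. The forkhead letters were found in the promoters of 4.41% of them and 2.65% of all genes tested, the T-box letters in 2.21% and 3.48%, and the SOX letters in 8.09% and 6.96%. Over all genes in the table the shares were 3.54%, 3.84% and 10.9%. Counted per promoter, they were 3.02%, 1.51% and 5.53% for the genes called higher and 2.14%, 2.79% and 5.63% for all genes tested. For all genes in the table they were 3.17%, 3.33% and 9.42%. The 6, 3 and 11 genes with a match are a description of letters in these windows, and no test was made.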
